A study of Mus musculus with 27 samples.

Results

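Collagens, matrix metalloproteinases, their tissue inhibitors and a small group of mural (vessel wall) and matricellular genes were followed while mouse microglia were turned towards neurons. The set was taken from the symbols of the RNA tables: all that begin with Col, a number, a and a number, all that begin with Mmp or Timp and a number, and 6 genes named singly, Acta2, Tagln, Mgp, Pdgfrb, Thy1 and Thbs1. This gave 78 genes of the 24293 symbols listed: 44 collagens, 23 Mmp genes, 4 Timp genes, the 6 named genes and Col4a3bp. Col4a3bp matches the letters only; it encodes a ceramide transfer protein and is not a collagen. The rule uses names and no measured value.

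Collagens are triple helical proteins of the extracellular matrix. Fibrillar types give tissues tensile strength, type IV forms the sheet of basement membranes around vessels and under the meninges, and other types decorate fibrils or build networks. Matrix metalloproteinases are zinc enzymes that cut collagens, other matrix proteins and many surface proteins. They are secreted, or held at the membrane in the membrane-type group, and the secreted TIMP proteins inhibit them. In the brain collagens come mostly from vessel wall cells, fibroblasts and meninges, whereas microglia and macrophages are known for elastase and collagenase activity.

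The samples came from the cortex of C57BL/6 wild type mice at postnatal day 1. ND1 cells were primary microglia given lentiviruses for ND1 and for M2rtTA, a doxycycline-dependent activator, then held in a neuronal medium with B27, BDNF, GDNF and NT3 and given doxycycline once. Neurons were cultured from the same cortex region in Neurobasal with B27, and control cells were microglia without ND1. RNA was measured in 3 libraries each of ND1 cells at day 7, ND1 cells at day 2, neurons, control cells at day 7 and control cells at day 2. The labels do not spell out ND1, do not give the medium of the control cells and do not say whether replicates were separate cultures, so p-values measure the spread between these samples, which may be technical. Whether control cells received M2rtTA virus or doxycycline is not stated either. The ND1 effect below therefore means ND1 cells minus control cells. In it ND1 cannot be told apart from virus, doxycycline or medium. Bisulfite sequencing covered 1 ND1 and 1 control library, with no day in the labels. RNA levels are given in FPKM, a fragment count that the submitters scaled for transcript length and library size.

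Across the 15 RNA libraries the FPKM sum ran between 429013 and 739846, and 10709 to 12092 genes reached 1 FPKM. Cell type labels were checked with marker lists. The summed level of 12 neuron markers was 4436 to 4439 FPKM in ND1 cells at day 7, 720.1 to 892 at day 2, 3517 to 3817 in neurons, 28.4 to 36.4 in control cells at day 7 and 32.0 to 35.0 at day 2. The 12 microglia markers summed to 607 to 831 FPKM in ND1 cells at day 7, 7770.1 to 8412 at day 2, 34.6 to 37.8 in neurons, 15176 to 16006 in control cells at day 7 and 10024 to 10237 at day 2. Both lists followed the labels, with the ND1 cells of day 2 still mostly microglial by these sums. In such bulk libraries fewer cells of a type and less RNA per cell cannot be told apart.

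Many of these genes had little RNA. A gene was tested when 3 or more libraries had it at 1 FPKM or above, and 39 of the 78 genes did: 15 of 44 collagens, 14 of 23 Mmp genes, 3 of 4 Timp genes, all 6 named genes and Col4a3bp. Of the other genes 33 stayed under 1 FPKM in every library, and Mmp7 (matrilysin) and Mmp20 (enamelysin, a tooth enamel protease) were listed at 0 in all 15. No transmembrane collagen was tested. The highest on average of these, Col23a1, had 0.199, 0.189 and 0.252 FPKM in ND1 cells at day 7, 0.517, 0.509 and 0.524 at day 2, 0.976, 0.928 and 0.900 in neurons, 1.14, 0.829 and 1.07 in control cells at day 7 and 0.666, 0.629 and 0.710 at day 2, so neurons and control cells of day 7 overlapped and ND1 cells of day 7 were lowest.

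The starts of 5 genes are shown because they differ in RNA pattern and in CpG content. Mmp24 and Col4a1 begin in CpG-dense sequence and were high in ND1 cells of day 7, and Col27a1, highest in ND1 cells of day 2, also has a start in such sequence. Mmp12, highest in control cells of day 7, and Mmp8, high in both kinds of cell at day 2, begin in sequence with few or no CpGs. Each run reaches from 250 bases before to 50 after a RefSeq start (GRCm38.p6, the build also named mm10). It is written 5′ to 3′ on the gene's strand, with CpG dinucleotides in capitals. For Col27a1 the start used is chr4:63215412, while the RefSeq gene begins at chr4:63214009, outside its run. The positions are chr2:155775092-155775391 (+ strand), chr8:11312777-11313076 (- strand), chr4:63215162-63215461 (+ strand), chr9:7344147-7344446 (+ strand) and chr9:7558179-7558478 (+ strand).
Mmp24: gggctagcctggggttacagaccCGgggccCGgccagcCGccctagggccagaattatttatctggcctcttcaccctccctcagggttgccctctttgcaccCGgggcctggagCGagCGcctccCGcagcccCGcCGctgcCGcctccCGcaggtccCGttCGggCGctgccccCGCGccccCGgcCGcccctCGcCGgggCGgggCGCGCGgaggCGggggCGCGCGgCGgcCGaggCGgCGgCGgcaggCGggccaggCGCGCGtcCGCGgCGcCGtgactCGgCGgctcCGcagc
Col4a1: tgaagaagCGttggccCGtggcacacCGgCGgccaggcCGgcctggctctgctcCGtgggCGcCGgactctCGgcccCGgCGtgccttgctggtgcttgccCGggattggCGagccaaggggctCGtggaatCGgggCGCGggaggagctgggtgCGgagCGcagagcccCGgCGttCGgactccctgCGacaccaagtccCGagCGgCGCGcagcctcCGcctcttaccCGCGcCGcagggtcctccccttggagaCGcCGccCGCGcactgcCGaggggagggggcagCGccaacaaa
Col27a1: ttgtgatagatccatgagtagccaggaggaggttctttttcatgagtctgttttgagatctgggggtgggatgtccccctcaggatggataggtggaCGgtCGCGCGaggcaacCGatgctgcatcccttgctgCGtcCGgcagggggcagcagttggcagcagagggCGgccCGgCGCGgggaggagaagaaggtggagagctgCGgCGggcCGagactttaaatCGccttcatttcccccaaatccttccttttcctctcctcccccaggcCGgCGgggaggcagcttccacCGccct
Mmp12: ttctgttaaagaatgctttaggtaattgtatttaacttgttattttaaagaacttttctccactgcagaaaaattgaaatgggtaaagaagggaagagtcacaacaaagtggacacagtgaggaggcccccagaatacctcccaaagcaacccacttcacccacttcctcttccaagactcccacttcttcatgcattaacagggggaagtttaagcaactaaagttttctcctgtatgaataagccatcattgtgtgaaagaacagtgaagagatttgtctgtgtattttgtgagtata
Mmp8: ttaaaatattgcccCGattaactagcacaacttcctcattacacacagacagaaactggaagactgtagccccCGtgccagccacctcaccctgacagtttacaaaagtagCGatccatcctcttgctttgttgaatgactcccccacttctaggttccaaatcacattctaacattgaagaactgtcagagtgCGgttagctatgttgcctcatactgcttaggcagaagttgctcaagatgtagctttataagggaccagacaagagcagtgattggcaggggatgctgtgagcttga
These windows hold 44 CpGs in Mmp24, 37 in Col4a1, 18 in Col27a1, 0 in Mmp12 and 4 in Mmp8. Col4a1 and Col4a2 start 21 bases apart on opposite strands of chromosome 8, so the run for Col4a1 covers the start region of both. Mmp27 and Mmp8 lie next to each other on chromosome 9, with starts 12967 bases apart.

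At day 7 the membrane-type enzymes Mmp24, Mmp17, Mmp16 and Mmp15 were higher in ND1 cells than in control cells. Mmp27 and the secreted enzymes Mmp12, Mmp13, Mmp19 and Mmp9 were lower. The kinds did not separate fully, since the secreted Mmp11 was higher and the membrane-type Mmp14 and the secreted Mmp2, Mmp8 and Mmp10 were not called. Among collagens the type IV chains Col4a1 and Col4a2 had the largest increases on the log2(FPKM + 1) scale, and Timp1, Timp2, Tagln and Thbs1 were lower. A gene is called higher or lower here at a Benjamini-Hochberg adjusted p under 0.05, from limma over all 13599 genes tested, with a log2 fold change of at least 1 in size. By this rule 13 of the 39 genes were higher, beside 25.7% of all genes tested, and 11 were lower, beside 24.5%. The median log2 fold change was 0.07 over the 39 genes and 0.04 over all genes. These counts are near the share of all genes. Since a gene could enter the test through 1 high group, they are a description of these members.

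At day 2 ND1 cells already had 9 of the 39 genes called higher than in control cells, beside 9.1% of all genes, and 2 called lower, Thbs1 and Mmp27, beside 0.618%. The 9 were Mmp24, Mmp17, Col4a1, Col27a1, Mmp16, Thy1, Col1a1, Acta2 and Col4a2. The count was 4 under quantile normalization, where Mmp24, Mmp17, Col4a1 and Col27a1 remained, and 20 with a pseudocount of 0.1. The median log2 fold change at day 2 was 0.47 over the 39 genes and -0.04 over all genes. Within ND1 cells, 19 of the 39 genes were higher at day 7 than at day 2, beside 22.6% of all genes, and 8 were lower, beside 21.1%. The ND1 effect itself differed between the days for 18 genes: it was more positive at day 7 for 7 of the 39 (20.5% of all genes) and more negative for 11 (20.8%).

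**Figure D1:**
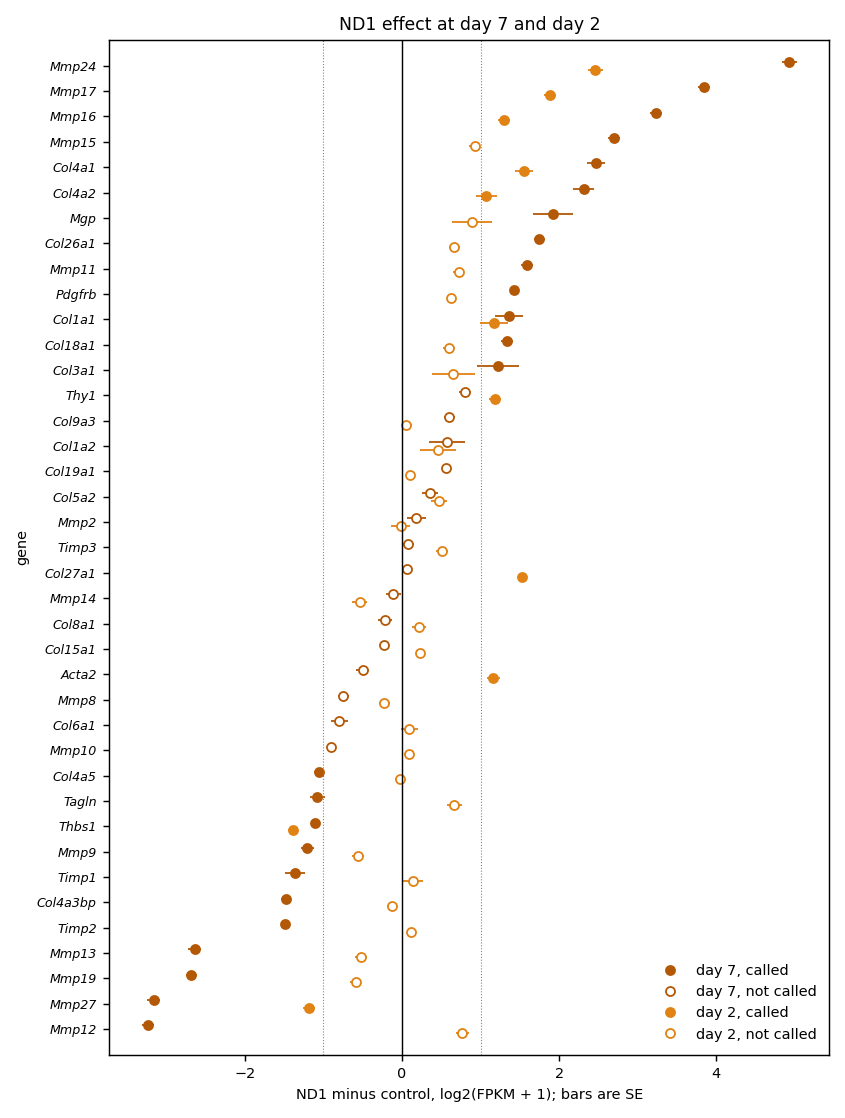
ND1 effect on the 39 tested genes, as the difference ND1 minus control on the log2(FPKM + 1) scale (horizontal axis) for each gene (vertical axis), at day 7 (dark) and day 2 (light). Points are limma estimates from 3 libraries per group, bars are standard errors, filled points were called and dotted lines mark the fold threshold. Mmp24 lies at 4.93 at day 7 and 2.46 at day 2, and Mmp12 at -3.23 at day 7 and 0.77 at day 2.

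Summed over the 44 collagens, RNA levels averaged 55.8 ± 1.53 FPKM in ND1 cells at day 7, 17.3 ± 0.888 at day 2, 44.4 ± 2.25 in neurons, 25.1 ± 7.61 in control cells at day 7 and 6.31 ± 0.603 at day 2 (SD, n = 3 each). The 23 Mmp genes summed to 99.8 ± 2.31 FPKM in ND1 cells at day 7, 103 ± 0.867 at day 2, 79.9 ± 3.59 in neurons, 149 ± 12.04 in control cells at day 7 and 85.3 ± 1.44 at day 2. Mmp24 made the largest part of this sum in ND1 cells of day 7 and in neurons, and Mmp12 in ND1 cells of day 2 and in control cells of both days. The Timp sum was 84.2 ± 3.17 FPKM in ND1 cells at day 7, 118 ± 2.49 at day 2, 95.7 ± 3.39 in neurons, 234 ± 5.46 in control cells at day 7 and 109 ± 0.680 at day 2, and was almost all Timp2.

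**Figure D2:**
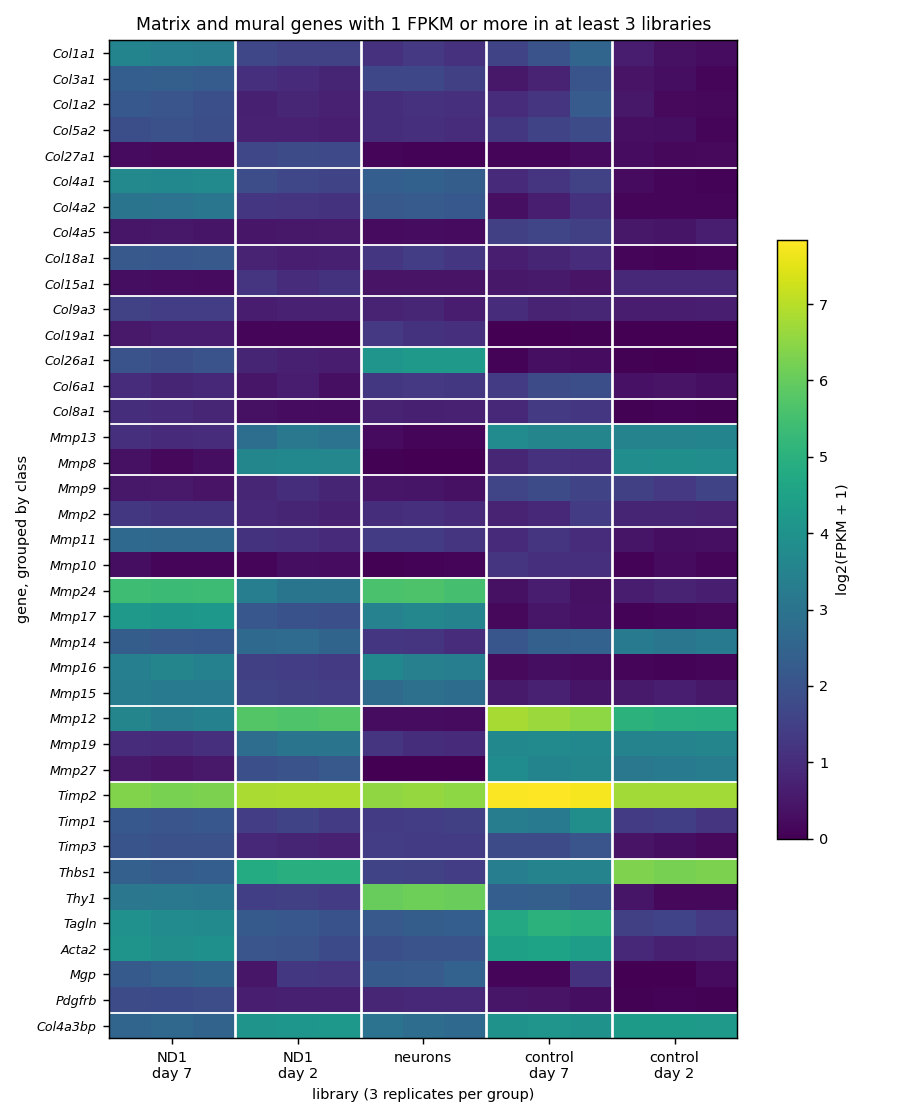
Levels of the 39 tested genes (rows, grouped by class) in the 15 libraries (columns, 3 per group), as log2(FPKM + 1) by colour. The membrane-type genes Mmp24, Mmp17, Mmp16 and Mmp15 are bright in ND1 cells of day 7 and neurons, while Mmp12, Mmp13, Mmp19 and Mmp27 are bright in control cells of day 7, and Timp2 is bright throughout.

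The largest differences at day 7 were those of Mmp24 and Mmp17. Mmp24 encodes MT5-MMP, a membrane-bound protease known from neurons. It had 41.0, 40.0 and 40.4 FPKM in ND1 cells at day 7 and 9.27, 7.18 and 7.13 at day 2. Neurons had 46.8, 49.3 and 45.5 FPKM, control cells 0.265, 0.556 and 0.279 at day 7 and 0.510, 0.720 and 0.574 at day 2. No ND1 library overlapped a control library, and the day 7 difference was called (log2 fold change 4.93 ± 0.094 SE, adjusted p = 2.36e-15), as was day 2 (log2 fold change 2.46 ± 0.094 SE, adjusted p = 4.29e-11). Against neurons the ND1 cells of day 7 were slightly lower without a call (log2 fold change -0.22 ± 0.094 SE, adjusted p = 0.0515).

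Mmp17 encodes MT4-MMP, which is anchored by a lipid tail. Its levels were 17.5, 16.8 and 17.1 FPKM in ND1 cells at day 7 and 3.39, 2.92 and 2.77 at day 2, against 10.2, 11.4 and 10.3 in neurons, 0.123, 0.391 and 0.293 in control cells at day 7 and 0.0490, 0.0845 and 0.132 at day 2. The neurons were below every ND1 library of day 7, although the difference was under the fold threshold (log2 fold change 0.64 ± 0.077 SE, adjusted p = 4.18e-06). The ND1 effect was called at day 7 (log2 fold change 3.84 ± 0.077 SE, adjusted p = 3.69e-15) and at day 2 (log2 fold change 1.88). Mmp16 (MT3-MMP, cleaving pro-MMP2 and proteoglycans) had 9.54, 10.8 and 9.99 FPKM in ND1 cells at day 7, 1.80, 1.68 and 1.52 at day 2, 11.6, 9.72 and 9.17 in neurons, 0.142, 0.228 and 0.179 in control cells at day 7 and 0.0884, 0.0635 and 0.0912 at day 2. ND1 cells of day 7 and neurons overlapped, and the ND1 effect was called at day 7 (log2 fold change 3.23 ± 0.073 SE, adjusted p = 1.21e-14) and at day 2 (log2 fold change 1.30, or 0.84 and not called under quantile normalization).

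Mmp15 (MT2-MMP, a broad membrane-bound collagenase) had 8.97, 8.59 and 8.36 FPKM in ND1 cells at day 7, 2.05, 1.79 and 1.67 at day 2, 5.55, 6.46 and 5.81 in neurons, 0.473, 0.630 and 0.362 in control cells at day 7 and 0.482, 0.579 and 0.427 at day 2. It was called higher at day 7 (log2 fold change 2.70 ± 0.074 SE, adjusted p = 9.71e-14), while day 2 fell just short of the fold threshold (log2 fold change 0.92). Mmp14 (MT1-MMP, the main activator of pro-MMP2) did not share this pattern. It had 3.92, 3.53 and 3.49 FPKM in ND1 cells at day 7, 5.42, 5.64 and 4.71 at day 2, 1.35, 1.26 and 0.977 in neurons, 3.29, 4.33 and 4.53 in control cells at day 7 and 8.42, 7.46 and 8.36 at day 2. ND1 cells and control cells overlapped at day 7, and ND1 cells of day 7 were called higher than neurons (log2 fold change 1.08 ± 0.098 SE, adjusted p = 2.29e-07). Mmp25 (MT6-MMP), the remaining member of the group, did not exceed 0.213 FPKM in any library.

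**Figure D3:**
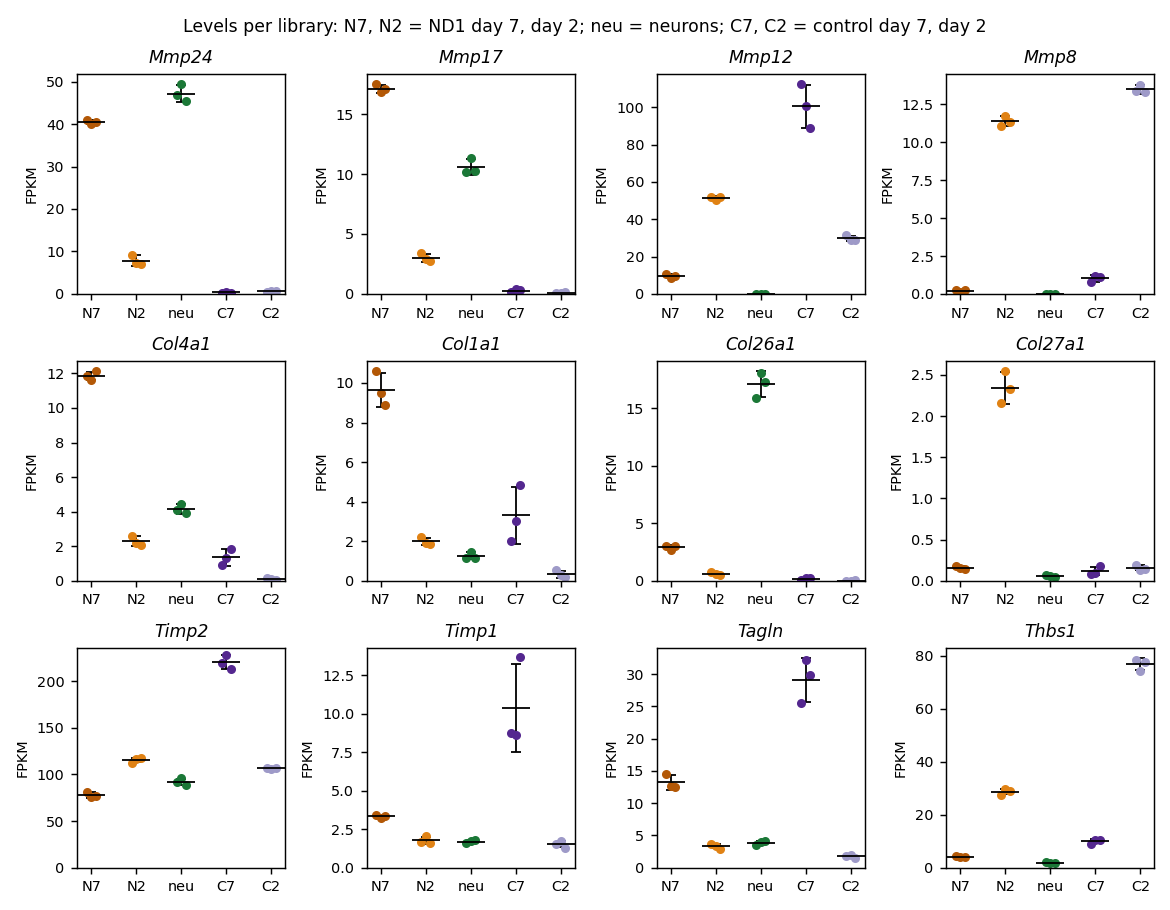
FPKM per library (vertical axes, linear, from 0) for 12 genes in ND1 cells at day 7 and day 2, neurons, and control cells at day 7 and day 2. Points are libraries, dashes are means and bars are SD of 3 libraries. Mmp24 and Mmp17 are high in ND1 cells of day 7 and in neurons, Mmp12 is highest in control cells of day 7, and Col27a1 is above 1 FPKM only in ND1 cells of day 2.

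Several secreted proteases were lower in ND1 cells at day 7. Mmp12, macrophage elastase, was the most abundant Mmp gene on average. It had 10.9, 8.76 and 9.81 FPKM in ND1 cells at day 7 and 52.2, 50.2 and 52.1 at day 2. Neurons had 0.196, 0.203 and 0.182 FPKM, and control cells 112, 101 and 89.2 at day 7 and 31.5, 29.2 and 28.8 at day 2. At day 7 every ND1 library was below every control library (log2 fold change -3.23 ± 0.078 SE, adjusted p = 2.36e-14), yet ND1 cells stayed above neurons (log2 fold change 3.18 ± 0.078 SE, adjusted p = 3.57e-13). At day 2 every ND1 library was above every control library, by less than the fold threshold (log2 fold change 0.77 ± 0.078 SE, adjusted p = 1.19e-06). The ND1 effect of day 7 minus that of day 2 was the most negative of the 39 genes (log2 difference -4.0 ± 0.11 SE, adjusted p = 1.02e-12).

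Mmp13 (collagenase 3) had 1.14, 0.902 and 0.998 FPKM in ND1 cells at day 7, 6.07, 7.79 and 6.99 at day 2, 0.180, 0.0963 and 0.0761 in neurons, 12.9, 10.9 and 10.8 in control cells at day 7 and 10.4, 10.2 and 10.5 at day 2, and was called lower at day 7 (log2 fold change -2.64 ± 0.081 SE, adjusted p = 3.60e-13). Mmp19, which cuts basement membrane proteins, had 1.01, 0.916 and 1.10 FPKM in ND1 cells at day 7, 5.95, 7.06 and 7.02 at day 2, 1.27, 1.03 and 0.892 in neurons, 11.7, 12.5 and 11.5 in control cells at day 7 and 10.4, 10.3 and 10.9 at day 2. Its ND1 libraries of day 7 overlapped the neurons and lay below all control libraries (log2 fold change -2.68 ± 0.072 SE, adjusted p = 7.75e-14). Mmp27, a less studied member of the family, had 0.447, 0.323 and 0.449 FPKM in ND1 cells at day 7, 2.79, 3.00 and 3.54 at day 2, 0 in all 3 neuron libraries, 13.1, 10.7 and 11.0 in control cells at day 7 and 7.85, 8.13 and 8.96 at day 2. It was called lower in ND1 cells at day 7 (log2 fold change -3.16 ± 0.08 SE, adjusted p = 4.15e-14) and at day 2 (log2 fold change -1.18 ± 0.08 SE, adjusted p = 1.85e-08).

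These 4 proteases can be set beside other genes of the same profile. Of all genes, 1359 had at least 5 FPKM in control cells at day 7 and neurons at no more than 10% of that. In ND1 cells of day 7 their level lay a median 5.18% of the way from the neuron mean to the control mean, with an interquartile range of 3.90% to 6.95%. Mmp12 lay at 9.57%, Mmp13 at 7.84%, Mmp27 at 3.49% and Mmp19 at -0.49%, the negative value meaning just under the neuron mean. Mmp12, Mmp13 and Mmp27 were inside and Mmp19 was below the range of the other genes, from 1.08% (5th percentile) to 13.0% (95th). At day 2, ND1 cells had 173% of the control level of Mmp12, whereas the median of such genes was 72.9% and their 95th percentile 125%.

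Mmp8, neutrophil collagenase, was lower at day 7 than at day 2 in both kinds of cell. It had 0.265, 0.125 and 0.226 FPKM in ND1 cells at day 7, 11.1, 11.8 and 11.3 at day 2, 0.0219, 0 and 0 in neurons, 0.774, 1.18 and 1.14 in control cells at day 7 and 13.4, 13.8 and 13.3 at day 2. In control cells day 7 was far below day 2 (log2 fold change -2.84 ± 0.07 SE, adjusted p = 1.45e-12), and in ND1 cells too (log2 fold change -3.36 ± 0.07 SE, adjusted p = 1.44e-14). Every ND1 library of day 7 was below every control library of day 7, by less than the fold threshold (log2 fold change -0.75 ± 0.07 SE, adjusted p = 1.35e-07). This was called with a pseudocount of 0.1 (log2 fold change -1.90) and under quantile normalization (-1.12). The ND1 effect of day 7 minus that of day 2 was under the fold threshold (log2 difference -0.52 ± 0.099 SE, adjusted p = 2.25e-04), and called with a pseudocount of 0.1 (-1.66). Mmp9 (gelatinase B) had 0.410, 0.442 and 0.342 FPKM in ND1 cells at day 7, 0.805, 1.03 and 0.765 at day 2, 0.399, 0.368 and 0.280 in neurons, 2.11, 2.52 and 2.06 in control cells at day 7 and 1.79, 1.47 and 2.03 at day 2, and was called lower at day 7 (log2 fold change -1.21 ± 0.08 SE, adjusted p = 2.65e-09). At day 2 Mmp9 was called lower under quantile normalization alone (log2 fold change -1.08).

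Mmp11 (stromelysin 3) was a secreted protease called higher in ND1 cells at day 7. It had 5.39, 5.14 and 5.16 FPKM in ND1 cells at day 7, 1.24, 1.10 and 0.944 at day 2, 1.65, 1.61 and 1.31 in neurons, 0.954, 1.27 and 0.982 in control cells at day 7 and 0.347, 0.215 and 0.247 at day 2. ND1 cells of day 7 were above all other groups without overlap, called against control cells (log2 fold change 1.59 ± 0.074 SE, adjusted p = 4.10e-11) and against neurons (log2 fold change 1.31 ± 0.074 SE, adjusted p = 1.67e-09). Mmp2 (gelatinase A) and Mmp10 (stromelysin 2) were tested and not called at either day between ND1 and control cells, with log2 fold changes of 0.18 and -0.90 at day 7. Mmp10 was called lower at day 7 under quantile normalization and with a pseudocount of 0.1. Mmp8, Mmp27, Mmp24 and Mmp19 overlap other genes in the RefSeq annotation. So do genes of the set outside the Mmp family, among them Tagln, Timp2, Col9a3, Col4a1 and Col4a2. The sources used here do not say whether counting used strand, so shared reads cannot be told apart.

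On the log2(FPKM + 1) scale the type IV chains Col4a1 and Col4a2 had the largest increases among collagens at day 7. Another type IV chain, Col4a5, was called lower. The ranking depends on this scale, which understates changes of low genes. Col26a1, for example, had means of 2.91 FPKM in ND1 cells and 0.170 in control cells at day 7. Col4a1, a chain of the ubiquitous basement membrane network, had 11.8, 11.6 and 12.1 FPKM in ND1 cells at day 7 and 2.60, 2.19 and 2.05 at day 2. Neurons had 4.09, 4.44 and 3.91 FPKM, control cells 0.906, 1.32 and 1.85 at day 7 and 0.181, 0.103 and 0.0622 at day 2. ND1 cells of day 7 exceeded every other group without overlap, and were called higher than control cells (log2 fold change 2.47 ± 0.11 SE, adjusted p = 3.26e-11) and neurons (log2 fold change 1.32 ± 0.11 SE, adjusted p = 1.25e-07). Its partner chain Col4a2, which starts beside it on the opposite strand, had 7.05, 6.92 and 7.38 FPKM in ND1 cells at day 7, 1.36, 1.29 and 1.24 at day 2, 3.59, 3.74 and 3.45 in neurons, 0.260, 0.583 and 1.19 in control cells at day 7 and 0.0931, 0.0837 and 0.0873 at day 2. Col4a2 was called higher in ND1 cells at day 7 (log2 fold change 2.31 ± 0.14 SE, adjusted p = 5.96e-10) and at day 2 (log2 fold change 1.07 ± 0.14 SE, adjusted p = 9.88e-06; 0.59 and not called under quantile normalization), and the order of the 5 group means was the same in both genes.

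Col4a5, a chain of another type IV network, was called lower in ND1 cells at day 7 (log2 fold change -1.06), with its highest library at 2.14 FPKM in control cells of day 7. The 3 control libraries of day 7 alone reached 1 FPKM, and without any of them it is not tested. Col18a1, a vessel basement membrane collagen and the source of endostatin, had 3.52, 3.35 and 3.56 FPKM in ND1 cells at day 7, 0.691, 0.595 and 0.624 at day 2, 1.36, 1.69 and 1.38 in neurons, 0.573, 0.769 and 1.01 in control cells at day 7 and 0.0998, 0.0646 and 0.0674 at day 2. It was called higher at day 7 (log2 fold change 1.33 ± 0.075 SE, adjusted p = 3.88e-10; 0.89 and not called under quantile normalization). Its relative Col15a1 was not called between ND1 and control cells at either day.

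Among fibrillar collagens Col1a1, the main chain of bone and scar fibrils, had 10.6, 9.48 and 8.87 FPKM in ND1 cells at day 7 and 2.19, 1.93 and 1.87 at day 2. Neurons had 1.16, 1.48 and 1.18 FPKM, control cells 2.03, 3.02 and 4.85 at day 7 and 0.544, 0.278 and 0.193 at day 2. ND1 cells of day 7 lay above all other libraries and were called higher than control cells (log2 fold change 1.36 ± 0.18 SE, adjusted p = 5.24e-06) and than neurons (log2 fold change 2.23 ± 0.18 SE, adjusted p = 6.31e-08). At day 2 they were called higher than control cells (log2 fold change 1.17), but not under quantile normalization (0.59). Col5a2, which joins type I fibrils, had 2.69, 2.86 and 2.68 FPKM in ND1 cells at day 7, 0.655, 0.638 and 0.592 at day 2, 1.04, 1.12 and 1.01 in neurons, 1.39, 2.06 and 2.46 in control cells at day 7 and 0.256, 0.211 and 0.0678 at day 2. It was not called between ND1 and control cells (log2 fold change 0.35 at day 7), but control cells of day 7 were called higher than those of day 2 (log2 fold change 1.32 ± 0.10 SE, adjusted p = 8.17e-08).

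For the fibroblast collagens 1 control library stood apart. Col3a1, found with type I collagen in vessel walls, had 4.05, 4.14 and 3.90 FPKM in ND1 cells of day 7, against 0.429, 0.724 and 3.07 in control cells of day 7, where replicate 3 was high. ND1 cells were called higher (log2 fold change 1.22 ± 0.27 SE, adjusted p = 7.37e-04), with a log2 fold change of 1.68 without that library and of 0.92, no longer called, without replicate 1. Under quantile normalization it was 0.84 and not called. The 22 fibroblast and meningeal markers summed to 20.4 to 21.7 FPKM in ND1 cells of day 7 and 136 to 147 in control cells of day 7. Of the 22, only 5 had a mean of at least 1 FPKM in these ND1 cells and only 6 in these control cells. Of the 9 tested, Postn was higher in ND1 cells (log2 fold change 1.70) and Nupr1 (-3.49), S100a4 (-2.95), Ogn (-1.41), Islr (-1.13) and Ptgds (-1.13) were lower, while 25.7% of all genes were higher and 24.5% lower. Aspn, Dpt and Twist2 were at 0 in control cells of day 7. Dcn, a fibroblast proteoglycan of this list chosen after its values were seen, had 0.308, 0.472 and 0.533 FPKM in ND1 cells of day 7 and 0.880, 0.202 and 2.95 in control cells of day 7, highest in the same replicate 3 as Col3a1. As 1 picked gene of 22 Dcn does not stand for the list, and library values of most others are not given here. The part of such cells in the result was not tested.

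Col27a1, a fibrillar collagen of cartilage, behaved unlike the rest. It had 0.185, 0.155 and 0.143 FPKM in ND1 cells at day 7, 2.15, 2.54 and 2.33 at day 2, 0.0664, 0.0576 and 0.0506 in neurons, 0.0795, 0.0950 and 0.174 in control cells at day 7 and 0.191, 0.135 and 0.146 at day 2. The 3 ND1 libraries of day 2 exceeded all 12 others more than 10-fold. The ND1 effect was called at day 2 (log2 fold change 1.53 ± 0.048 SE, adjusted p = 5.97e-12) and was near 0 at day 7 (log2 fold change 0.06), and the days differed (log2 difference -1.47 ± 0.067 SE, adjusted p = 8.98e-11). The gene reached 1 FPKM in these 3 libraries alone, so leaving out any of them takes it out of the genes tested.

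Col26a1, a collagen with an EMI domain, was a neuron gene in these data. It had 3.03, 2.70 and 3.02 FPKM in ND1 cells at day 7, 0.748, 0.615 and 0.510 at day 2, 15.9, 18.1 and 17.3 in neurons, 0.0621, 0.244 and 0.205 in control cells at day 7 and 0.0257, 0.0139 and 0.0290 at day 2. ND1 cells of day 7 were called higher than control cells (log2 fold change 1.74 ± 0.071 SE, adjusted p = 8.20e-12) and called lower than neurons (log2 fold change -2.21 ± 0.071 SE, adjusted p = 4.55e-12), so they lay between the groups. Col9a3, a chain of the fibril-associated type IX, had 1.90, 1.67 and 1.71 FPKM in ND1 cells at day 7, 0.511, 0.644 and 0.648 at day 2, 0.672, 0.774 and 0.549 in neurons, 0.988, 0.680 and 0.797 in control cells at day 7 and 0.500, 0.539 and 0.576 at day 2, and missed the fold threshold at day 7 (log2 fold change 0.60). Col8a1, a short chain network collagen of vessel walls, had 1.05, 0.927 and 0.798 FPKM in ND1 cells at day 7, 0.269, 0.193 and 0.178 at day 2, 0.689, 0.601 and 0.663 in neurons, 0.855, 1.54 and 1.35 in control cells at day 7 and 0.0394, 0.0566 and 0.0369 at day 2. Its ND1 and control libraries overlapped at day 7. Col4a3bp, the lipid transfer gene, had 4.85, 5.26 and 4.64 FPKM in ND1 cells at day 7, 15.6, 16.5 and 17.2 at day 2, 6.86, 6.04 and 5.43 in neurons, 14.9, 16.2 and 15.4 in control cells at day 7 and 18.1, 18.5 and 17.4 at day 2, and was called lower at day 7 (log2 fold change -1.48 ± 0.067 SE, adjusted p = 2.83e-11).

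Of the inhibitors, Timp2 was abundant in every group. It had 81.0, 75.4 and 76.9 FPKM in ND1 cells at day 7, 113, 117 and 117 at day 2, 91.6, 95.7 and 89.0 in neurons, 219, 228 and 213 in control cells at day 7 and 107, 106 and 107 at day 2. Control cells of day 7 stood above all other groups, and ND1 cells were called lower at day 7 (log2 fold change -1.49 ± 0.039 SE, adjusted p = 5.02e-14) and not at day 2 (log2 fold change 0.11). Timp1, an inhibitor induced in reactive glia, had 3.45, 3.23 and 3.36 FPKM in ND1 cells at day 7, 1.66, 2.06 and 1.64 at day 2, 1.59, 1.71 and 1.81 in neurons, 8.78, 8.66 and 13.7 in control cells at day 7 and 1.56, 1.73 and 1.31 at day 2. It was called lower in ND1 cells at day 7 (log2 fold change -1.36 ± 0.13 SE, adjusted p = 1.55e-07; -1.16 without control replicate 3 of that day, its highest library).

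Timp3, a matrix-bound inhibitor, had 3.13, 2.84 and 2.81 FPKM in ND1 cells at day 7, 0.849, 0.760 and 0.653 at day 2, 1.66, 1.64 and 1.56 in neurons, 2.53, 2.51 and 3.19 in control cells at day 7 and 0.331, 0.225 and 0.138 at day 2. ND1 and control cells overlapped at day 7, with both above their day 2 libraries. Timp4 was too low to be tested, with 0.171, 0.213 and 0.140 FPKM in ND1 cells at day 7, 0.0506, 0 and 0.0513 at day 2, 0.326, 0.314 and 0.288 in neurons, 0.154, 0.821 and 0.298 in control cells at day 7 and 0.0531, 0.0286 and 0.0299 at day 2. In the RefSeq annotation Timp1 lies wholly inside Syn1 and Timp4 inside Syn2, on the opposite strand, and Timp3 lies inside Syn3. The 3 synapsins, neuronal vesicle genes, summed to 105 to 107 FPKM in ND1 cells at day 7, 21.5 to 26.0 at day 2, 178 to 188 in neurons, 6.53 to 7.05 in control cells at day 7 and 6.16 to 6.64 at day 2. The strand used in counting is not given in the sources used here, and the part of synapsin reads in the Timp values was not tested.

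The contractile genes were called higher at day 7 than at day 2 in both ND1 and control cells. Acta2, smooth muscle actin, had 15.7, 13.6 and 14.4 FPKM in ND1 cells at day 7, 3.22, 2.98 and 2.39 at day 2, 2.75, 3.03 and 3.03 in neurons, 20.7, 22.3 and 20.0 in control cells at day 7 and 0.829, 0.616 and 0.719 at day 2. Within control cells day 7 was called above day 2 (log2 fold change 3.68 ± 0.08 SE, adjusted p = 5.48e-13). ND1 cells were called higher at day 2 (log2 fold change 1.16 ± 0.08 SE, adjusted p = 2.23e-08; 0.64 and not called under quantile normalization) and not called at day 7 (log2 fold change -0.50). Tagln, the actin-binding protein transgelin, had 14.5, 12.6 and 12.5 FPKM in ND1 cells at day 7, 3.66, 3.41 and 2.97 at day 2, 3.53, 3.92 and 4.10 in neurons, 25.5, 32.1 and 29.8 in control cells at day 7 and 1.79, 1.98 and 1.47 at day 2, and was called lower in ND1 cells at day 7 (log2 fold change -1.08 ± 0.096 SE, adjusted p = 7.55e-08; -0.96 and not called under quantile normalization). Both genes were called higher in ND1 cells of day 7 than in neurons, with log2 fold changes of 1.98 for Acta2 and 1.55 for Tagln.

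Pdgfrb, the receptor that marks pericytes, had 2.57, 2.41 and 2.60 FPKM in ND1 cells at day 7, 0.571, 0.603 and 0.621 at day 2, 0.805, 0.822 and 0.846 in neurons, 0.388, 0.339 and 0.225 in control cells at day 7 and 0.0309, 0.0533 and 0.0348 at day 2, and was called higher at day 7 (log2 fold change 1.42 ± 0.046 SE, adjusted p = 5.79e-13). It reached 1 FPKM in the ND1 libraries of day 7 alone, so leaving out any of them takes it out of the genes tested. Under quantile normalization the log2 fold change was 0.90 and not called. Mgp, a calcification inhibitor of vessel walls, had 3.61, 4.28 and 4.77 FPKM in ND1 cells at day 7, 0.388, 1.41 and 1.26 at day 2, 3.62, 3.80 and 4.56 in neurons, 0.0787, 0.0813 and 1.22 in control cells at day 7 and 0, 0 and 0.183 at day 2. ND1 cells of day 7 and neurons overlapped, and ND1 cells were called higher than control cells at day 7 (log2 fold change 1.92 ± 0.25 SE, adjusted p = 5.69e-06; 2.27 without control replicate 3).

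Of the 7 other mural markers tested, 2 were higher and 3 lower in ND1 cells at day 7, beside 25.7% and 24.5% of all genes. The median log2 fold change of the 7 was 0.19. Rgs5 (log2 fold change 1.99) and Mcam (1.27) were higher, and Anpep (-4.07), Cnn1 (-1.60) and Tpm2 (-1.11) were lower. Rgs5, a defining pericyte gene, had 2.86, 3.24 and 3.90 FPKM in ND1 cells at day 7, 0.478, 0.428 and 0.465 at day 2, 5.46, 5.45 and 5.46 in neurons, 0, 0.0200 and 0.244 in control cells at day 7 and 0, 0 and 0 at day 2. The list of 16 mural markers summed to 28.4 to 32.7 FPKM in ND1 cells at day 7, 20.7 to 23.6 in neurons and 199 to 211 in control cells at day 7, the last mostly Anpep, a peptidase that myeloid cells also express. Genes of the list at 0 in every library of a group were Higd1b and Ndufa4l2 in control cells of day 7 and Rgs5, Kcnj8, Higd1b and Vtn in those of day 2. The part of vessel wall cells in these results was not tested.

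Thy1, a surface glycoprotein of neurons and fibroblasts, had 7.54, 7.81 and 7.40 FPKM in ND1 cells at day 7, 1.72, 1.79 and 1.59 at day 2, 63.5, 68.4 and 65.7 in neurons, 4.08, 4.19 and 3.48 in control cells at day 7 and 0.358, 0.113 and 0.118 at day 2. ND1 cells were called higher than control cells at day 2 (log2 fold change 1.18 ± 0.076 SE, adjusted p = 1.09e-08; 0.64 and not called under quantile normalization), not at day 7 (log2 fold change 0.81), and called lower than neurons (log2 fold change -2.96 ± 0.076 SE, adjusted p = 5.50e-13). Thbs1, thrombospondin 1, a matricellular protein that activates TGF-beta and is known for inducing synapses, was highest in control cells of day 2. It had 4.33, 3.88 and 4.07 FPKM in ND1 cells at day 7, 27.5, 29.6 and 29.0 at day 2, 2.06, 1.93 and 1.68 in neurons, 9.13, 10.3 and 10.4 in control cells at day 7 and 78.5, 74.3 and 77.7 at day 2. ND1 cells were called lower at day 7 (log2 fold change -1.10 ± 0.059 SE, adjusted p = 2.17e-10) and at day 2 (log2 fold change -1.39 ± 0.059 SE, adjusted p = 1.29e-10), and in both kinds of cell day 7 was called below day 2 (log2 fold change -2.54 in ND1 cells and -2.83 in control cells).

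Against neurons, ND1 cells of day 7 had 7 of the 39 genes called higher, beside 7.29% of all genes: Mmp12, Col1a1, Acta2, Tagln, Col4a1, Mmp11 and Mmp14. The 2 called lower, beside 6.24%, were Thy1 and Col26a1. The median log2 fold change was 0.49 over the 39 genes and 0.06 over all genes. Neurons against control cells of day 7 gave 10 genes called higher (28.1% of all genes) and 15 called lower (25.2%). As these comparisons share libraries, their values are given side by side and not as separate evidence.

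Between the days, 7 of the 15 tested collagens, all 3 tested Timp genes and the contractile genes Acta2 and Tagln were called higher at day 7 than at day 2 in control cells. Control cells at day 7 had 14 of the 39 genes called higher than at day 2, beside 3.9% of all genes, and 2 called lower, Mmp8 and Thbs1, beside 3.79%. The largest were Acta2 (log2 fold change 3.68 ± 0.08 SE, adjusted p = 5.48e-13), Tagln (log2 fold change 3.45 ± 0.096 SE, adjusted p = 4.44e-12) and Timp1 (log2 fold change 2.14 ± 0.13 SE, adjusted p = 6.33e-09). Without replicate 3 of control day 7 the higher count was 10, with Col1a2, Col4a1, Col4a5 and Col8a1 no longer called. Sums of markers of other cells went both ways in control cells. The 12 astrocyte markers summed to 78.0 to 81.9 FPKM at day 7 and 20.3 to 21.8 at day 2, and 6 of the 10 tested were higher. The 16 mural markers summed to 199 to 211 FPKM at day 7 and 267 to 283 at day 2, yet 3 of the 7 tested were higher and 0 lower. Of the 16, only 4 had a mean of at least 1 FPKM at day 7 and only 1 at day 2, so few genes make these sums. The 14 endothelial markers summed to 10.1 to 11.0 FPKM at day 7 and 17.7 to 19.0 at day 2, and 1 of the 3 tested was lower. The 22 fibroblast and meningeal markers summed to 136 to 147 FPKM at day 7 and 365 to 391 at day 2, with Dpt and Twist2 at 0 in both, and 4 of the 9 tested were higher and 1 lower. Of the 22, only 6 had a mean of at least 1 FPKM at day 7 and only 2 at day 2. The part of such other cells in the result was not tested.

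Other genes of the same pathways were counted from fixed lists in ND1 against control cells at day 7, where 25.7% of all genes were higher and 24.5% lower. Of the basement membrane and other matrix proteins 11 of 25 tested were higher and 4 lower. The higher ones included the brain matrix genes Ncan (neurocan, log2 fold change 3.82) and Tnr (tenascin R, 3.10), and the lower ones Ecm1 (-4.01). Of the genes for collagen folding and crosslinking 3 of 26 were higher and 10 lower. Plod1 (lysyl hydroxylase, -3.56) and Lox (lysyl oxidase, -3.27) were among the lower ones. The higher ones were the procollagen proteinases Adamts3 (2.58), Bmp1 (2.00) and Adamts2 (1.17). The collagen chaperone Serpinh1 was called higher at day 2 (1.37) and not at day 7 (0.63).

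Collagen receptors and uptake genes had 0 of 8 higher and 6 lower at day 7, beside 25.7% of all genes higher and 24.5% lower, led by Mrc1 (mannose receptor, log2 fold change -3.92). At an unadjusted p under 0.05 2 of the 8 were higher. Of the ADAM and ADAMTS proteases 6 of 20 were higher, among them Adam22 (2.69), and 8 lower, among them Adam8 (-4.41). TGF-beta signalling genes had 2 of 16 higher and 6 lower, with Tgfb1 lowest (-4.11). In plasminogen activation 1 of 8 was higher, Serpini1 (neuroserpin, 3.72), and 3 were lower. Of the 3 tested genes for PDGF ligands and receptors Pdgfb was lower (-2.80). Called genes went in both directions in every list of this kind except the receptors and the PDGF genes.

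For genes of ND1 cells at day 7 far above control cells of day 2, the day 2 levels were alike as a share of that rise. For 19 of the 78 genes ND1 cells of day 7 had at least 2 FPKM and at least 5 times the mean of control cells of day 2. The mean ND1 level at day 2 lay a median 17.5% of the way from control day 2 to ND1 day 7, between 13.9% for Tagln and 23.0% for Mgp. All 2317 genes that met the same limits had a median of 16.8% and an interquartile range of 15.6% to 17.9%. Mmp24 lay at 18.2%, Col4a1 at 18.4%, Col1a1 at 17.8% and Acta2 at 15.5%. The 5th to 95th percentile of all such genes ran between 12.01% and 22.1%, which held the proteases, basement membrane collagens and contractile genes alike, with Mgp and Pdgfrb above it. The shares use the same control libraries and are a description. As the limits use control cells of day 2, change with culture time enters them. Tagln, for example, was called lower than in control cells at day 7.

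**Figure D4:**
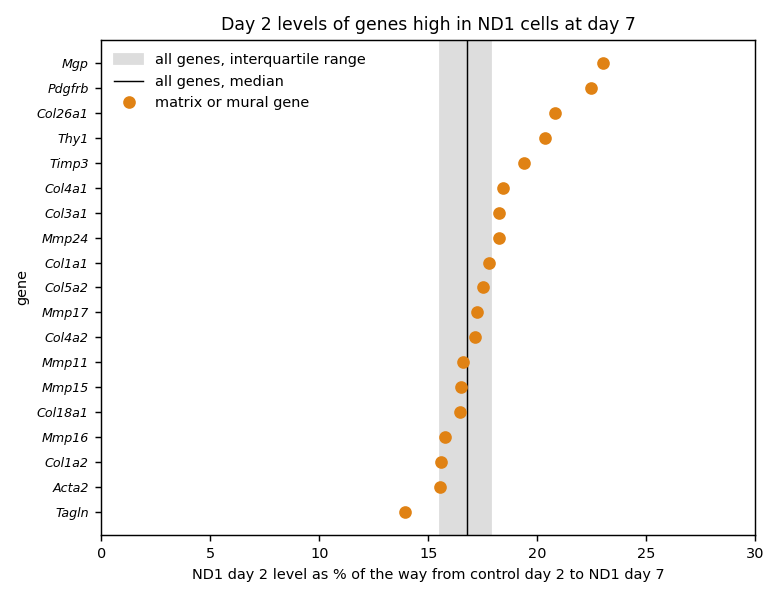
Mean ND1 level at day 2 as a percent of the way from the control mean at day 2 to the ND1 mean at day 7 (horizontal axis) for the 19 genes high in ND1 cells at day 7 (vertical axis). The line and band are the median and interquartile range of all 2317 such genes, 16.8% and 15.6% to 17.9%, and the 19 genes lie between 13.9% and 23.0%.

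DNA methylation could be compared at only part of the gene starts, and none of these differed by 20 points or more between the ND1 and control libraries. RefSeq start sequences were found for 58 of the 78 genes, and 54 had at least 5 CpGs with a value in both libraries from 1000 bases before to 500 after the start. Of these, 25 were under 20% methylated in the ND1 library and 23 in the control library, beside 48.1% of all 23984 gene starts in each. Of all starts 0.0125% differed by 20 points or more. Of the 24 genes called at day 7, 12 were among the 54 and 11 had no start in the table, among them Mmp17, Mmp16, Mmp19 and Col1a1. The middle 90% of the differences over all starts ran between -3.96 and 4.72 points (ND1 minus control). The median level of the 54 starts was 23.9% in the ND1 library and 21.6% in the control library. Over all 23984 starts the median was 24.0% in the ND1 library and 23.6% in the control library. The mean over all CpGs was 70.3% in the ND1 library and 70.2% in the control library. With 1 library each, no read counts in the files and no day in the labels, there is no test, and the precision of each value is unknown.

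Every start of these genes with over 60 CpGs was under 25% methylated in both libraries. With somewhat fewer CpGs, Col11a2 stood higher, at 36.5% in the ND1 library and 34.3% in the control library over 53 CpGs. Mmp24 stood at 6.71% methylated in the ND1 library and 7.07% in the control library over 119 CpGs, although its RNA differed most between the cells. Col4a1 stood at 2.85% in the ND1 library and 3.10% in the control library over 125 CpGs. Col27a1, around the start used for its printed run, had 2.82% in the ND1 library and 2.44% in the control library over 98 CpGs. A start with little methylation in the control library was thus found at genes that were high at day 7, high at day 2 alone, or, as in Timp2 (8.30% in the ND1 library, 8.69% in the control library), high everywhere.

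Some CpG-poor starts were over 50% methylated in both libraries although control cells had much RNA of the gene at day 2, and for Mmp13 and Mmp12 also at day 7. Control cells had 0.774 to 1.18 FPKM of Mmp8 at day 7, and the bisulfite libraries have no day. Mmp13 stood at 77.5% in the ND1 library and 73.6% in the control library over 8 CpGs, and Mmp8 at 55.9% in the ND1 library and 59.0% in the control library over 13 CpGs. Mmp12 has no CpG in the run printed above and 4 in the wider window, under the minimum, with a mean of 66.1% in the ND1 library and 55.1% in the control library. The widest gaps among the 54 were Mmp20 with 71.2% in the ND1 library and 55.7% in the control library over 8 CpGs, and Mmp27 with 58.3% in the ND1 library and 71.6% in the control library over 6. Both and Mmp12 lie outside the middle 90% of all starts, rest on few CpGs, and Mmp20 had no RNA in any library. Not all CpG-poor starts were high, since Col4a6 stood at 22.4% in the ND1 library and 20.4% in the control library over 15 CpGs. Acta2 stood at 84.3% in the ND1 library and 84.0% in the control library over 19 CpGs, with abundant RNA in both kinds of cell at day 7. At day 2 control cells had 0.616 to 0.829 FPKM of Acta2.

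**Figure D5:**
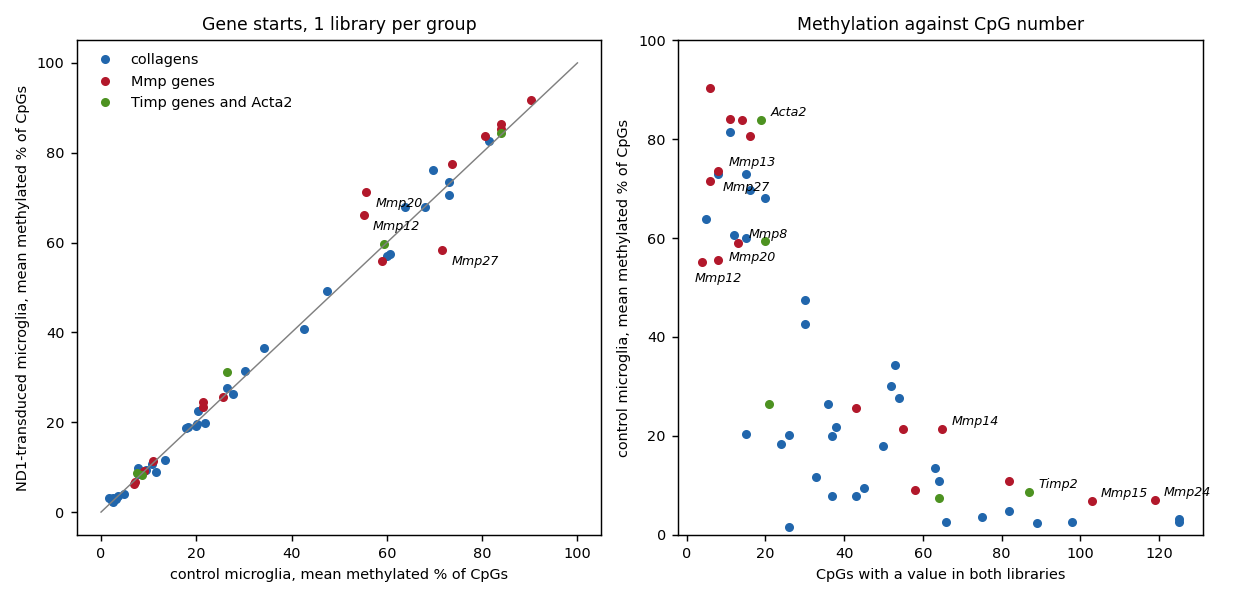
Left, mean methylated percent of CpGs at 55 gene starts in the ND1 library (vertical axis) against the control library (horizontal axis), with the line of equal values. Right, the control value against the number of CpGs in the window; Mmp12, with 4 CpGs, is drawn although under the minimum of 5. Starts with over 60 CpGs lie under 25%, and Mmp20, Mmp12 and Mmp27 lie farthest from the line.

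The runs of 300 bases around the starts were searched on both strands for CAGATG and CAGCTG, core forms of the E-box that basic helix-loop-helix factors bind. CAGATG was in 6 of the 58 gene starts found (10.3%), beside 17.3% of all 27025 starts of this length. CAGCTG was in 11 of the 58 (19.0%), beside 16.1%. Neither was in the runs for Mmp24, Col4a1, Col27a1, Mmp12 or Mmp8 printed above. A match is a run of letters, and its absence says nothing of sites outside these windows.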

How the data were processed

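RNA was measured in 15 libraries (5 groups of 3) and CpG methylation in 2 libraries; 10 immunoprecipitation libraries were not used. The authors computed FPKM per gene with TopHat, Bowtie2, Cuffdiff and Cufflinks on mm10, per the submitters' processing notes, which give no versions for these. The deposited bisulfite files give the methylated fraction per CpG; no source used here names their aligner or caller, and depth is unknown. FPKM hold no read counts; the worth of 1 read, from the spacing of low values, varied 0.727 to 1.13 relative to control day 2 replicate 1. No 2 libraries were identical.

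FPKM were transformed to log2(FPKM + 1), which understates changes of low genes, and fitted with limma 3.58.1 (R 4.3.3, intensity trend, 5 group means, no replicate block, 10 residual degrees of freedom) over the 13599 genes that 3 or more libraries held at 1 FPKM or above. Rows of 4 duplicated symbols were left out. The fit was tested on simulated data. Calls needed an adjusted p under 0.05 and a log2 fold change of 1 or more in size. Methylated percent was averaged over CpGs around RefSeq starts (GRCm38.p6), without a test. The genes and lists were chosen with earlier results of these data known. Values per library were given for the 6 genes named singly, the Timp genes, the top 8 called in each direction in 4 comparisons and the highest gene of each class; Col3a1 was added after its values were seen. Alternatives were another pseudocount, other filters, quantile normalization, a replicate block, leaving out each library and other methylation windows and limits. Exact tests of 3 against 3 cannot go below p = 0.1 and were not used.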

Additional observations from a re-analysis of the deposited data

Results flagged for a closer look

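The ND1 effect (ND1 minus control, log2(FPKM + 1)) differed between day 7 and day 2 by a called amount for 18 of the 39 genes, from limma's interaction term with Benjamini-Hochberg adjustment over all 13599 genes, beside 20.5% of all genes called in the positive and 20.8% in the negative direction. The values are day 7 minus day 2. The effect was more positive at day 7 for Mmp24 by 2.47, Mmp17 by 1.96, Mmp16 by 1.93, Mmp15 by 1.78, Col4a2 by 1.24, Col26a1 by 1.08 and Mgp by 1.03.

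The difference was -4.0 for Mmp12, -2.11 for Mmp13, -2.09 for Mmp19 and -1.98 for Mmp27, all outside the membrane-type group. For the contractile genes it was -1.74 for Tagln and -1.66 for Acta2, where control cells of day 7 were far above those of day 2. The inhibitors had -1.60 for Timp2 and -1.50 for Timp1. Col27a1 had -1.47, Col4a3bp -1.35 and Col4a5 -1.03. The call for Mgp was lost without any of 5 single libraries (0.78 to 0.95). Col27a1 is no longer tested without any ND1 library of day 2, nor Col4a5 without any control library of day 7, and Col4a5 also lost its call without control day 2 replicate 2. Under quantile normalization Col26a1 and Col4a5 lost their calls, and with a pseudocount of 0.1 Col4a2 and Mgp did.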

How the results depend on the processing

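A pseudocount of 0.1 in place of 1 moved the genes called higher in ND1 cells at day 2 to 20, against 9, those with a more negative ND1 effect at day 7 to 19, against 11, and those called higher in ND1 cells of day 7 than in neurons to 16, against 7. Genes with few FPKM are moved most by this choice. Quantile normalization left 4 higher at day 2, where the log2 fold changes became 0.64 for Acta2, 0.59 for Col1a1, 0.59 for Col4a2, 0.84 for Mmp16 and 0.64 for Thy1, and the call was lost at day 7 for Col18a1, Col3a1, Pdgfrb and Tagln (-0.96) and gained for Mmp8 (-1.12), Mmp10 and Col6a1, all lower, and at day 2 for Mmp9 (-1.08). A filter of 5 FPKM left fewer genes to test, with 8 higher in control cells at day 7 than at day 2, against 14, and 12 higher in ND1 cells at day 7 than at day 2, against 19. No filter left each of these counts within 1.5 times. For the tested genes of the set with values per library, no call changed direction under any of these settings. The sign of effects without a call was not compared. With each library left out in turn, the genes higher in ND1 cells numbered 12 to 13 at day 7 and 8 to 9 at day 2, the lower ones 10 to 11 at day 7 and 2 at day 2 each time, and those higher in control cells at day 7 than at day 2 10 to 14. Without control day 7 replicate 3 the change of Col4a1 with time in control cells was 0.92. The Mgp interaction lost its call without any of 5 single libraries, with values of 0.78 to 0.95, and that of Col4a2 did at a pseudocount of 0.1 (0.51).

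Replicate numbers did not pair the samples: of 30 pairs of same-numbered libraries 2 had deviations correlated above 0.1. A fit with the replicate number as a block gave the same counts, 13 higher and 11 lower at day 7 and 9 higher and 2 lower at day 2, and changed no call of the 39 genes in any comparison. Gene starts that differed by a threshold of 10 points in methylation numbered 2, against 0 at 20 points, beside 206 of all 23984 starts. A coverage minimum was not run, since the files hold no read counts, and this leaves the precision of CpG-poor starts unknown.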
